A study of Caenorhabditis elegans with 12 samples.

Results

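The mir-238 and mir-239 family of Caenorhabditis elegans was followed through 4 of its mature arms, cel-miR-238-3p, cel-miR-238-5p, cel-miR-239a-5p and cel-miR-239b-5p (below without the species prefix), picked by name from the 471 features of a small RNA count table. All 4 were found in the table. The study counted small RNA in whole wild-type worms and in worms whose mbl-1 gene was deleted or limited to part of its isoforms. That gene encodes MBL-1, the worm Muscleblind protein, which binds RNA and acts in splicing. There were 12 libraries, 3 from each of 4 genotypes: the mbl-1(tm1563) mutant, a line coded ME, a line coded SH, and wild type (N2). The ME and SH lines were taken by inference as the strains mbl-1(syb4318) and mbl-1(syb4345), since their column codes match no sample title. Each of these strains makes only a short or only a long MBL-1 isoform. Which code belongs to which strain and isoform length is not given in the sources used here, so the codes serve as names. All animals were L4 larvae, synchronized by bleaching and grown on OP50 bacteria at 20 °C. Each library was made from whole animals, so fewer cells of a type and less RNA per cell cannot be told apart. The mbl-1 transcript itself is not measured by such libraries, and the genotypes rest on the labels. The mbl-1(tm1563) columns were matched to that strain by inference, since they carry the gene name with no line code.

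A miRNA precursor folds into a hairpin, and Dicer cuts it into a duplex of a 5p and a 3p arm. As a rule an Argonaute protein keeps one arm as the guide that pairs with messenger RNAs through its seed, and the other arm is degraded, so the kept arm is usually the more abundant. The mir-238 and mir-239 genes are placed in a single family because miR-238-3p, miR-239a-5p and miR-239b-5p share their seed, which lies on the 3p arm of mir-238 and on the 5p arm of the mir-239 genes. In worms both have been studied in ageing, where loss of mir-238 was reported to shorten lifespan and loss of mir-239 to extend it.

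The Ensembl annotation of the build WBcel235 places mir-238 (WBGene00003331) on chromosome III, from 8867328 to 8867425 on the minus strand, with the 5p arm at 8867387 to 8867410 and the 3p arm at 8867343 to 8867365. The mir-239a gene (WBGene00003332) lies on chromosome X, from 11792445 to 11792542 on the plus strand, with its 5p arm at 11792460 to 11792482 and its 3p arm at 11792503 to 11792524. The mir-239b gene (WBGene00003333) lies 1045 bases away, from 11791302 to 11791399 on the minus strand, with its 5p arm at 11791363 to 11791384 and its 3p arm at 11791321 to 11791342. The 2 mir-239 genes therefore point away from each other on opposite strands. None of the 3 hairpins overlaps another annotated gene, so they are neither exonic nor intronic. The nearest gene to mir-238 is mir-80 of the bantam family, on the same strand with 1960 bases between them, and the nearest protein-coding gene, K01F9.2, is 2673 bases away. The arms of mir-239a and mir-239b are close copies, so reads may have been shared between them and their separate values are uncertain.

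Library totals lay between 6946205 and 12053039 counts. Levels are given in CPM, counts divided by the library size after TMM scaling. Wild-type library 1 stood apart, with a TMM factor of 0.788 and reads for 326 features, where the remaining libraries had reads for 365 to 400. The floor of detection, 3 counts, corresponds to 0.244 to 0.450 CPM depending on the library. Floors and Poisson intervals given here cover counting error alone, because PCR copies of a molecule were not marked. The libraries held markers that whole L4 larvae should hold: the muscle miRNA miR-1-3p had a median of 199525 CPM and the late larval miRNA let-7-5p 6220 CPM, while the sensory neuron miRNA miR-124-3p had 2.74 CPM. Each p-value below, unless a permutation test is named, comes from edgeR's quasi-likelihood test over the 12 libraries, adjusted by Benjamini-Hochberg over the 250 features that passed a filter on low counts. The threshold was an adjusted p of 0.05. All 4 family members passed the filter.

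The guide arm miR-238-3p was abundant and even, and no difference between genotypes passed the test. It took between 1.89% and 2.64% of the counts of each library and ranked between the 8th and 13th most abundant feature. The tm1563 libraries had 24348, 25281 and 22274 CPM, the ME libraries 25903, 22417 and 21608 CPM, the SH libraries 20296, 23536 and 21354 CPM, and the wild-type libraries 24257, 21173 and 18546 CPM. The ranges of all 4 genotypes overlapped. By mean level the order was SH line and wild type lowest, then ME line, then tm1563, and no neighbours in that order differed beyond their spread.

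In tm1563 miR-238-3p averaged 23968 ± 1539 CPM, against 21325 ± 2858 CPM in wild type (SD, n = 3 each), a log2 fold change of 0.17 (SE 0.16, 95% interval -0.16 to 0.50, edgeR adjusted p = 0.538). In the ME line it averaged 23309 ± 2282 CPM, with a log2 fold change against wild type of 0.13 (interval -0.20 to 0.46). In the SH line it averaged 21729 ± 1652 CPM, with a log2 fold change against wild type of 0.027 (interval -0.30 to 0.36). The 3 differences between mutant lines lay between 0.040 and 0.14 on the log2 scale, and the one between ME and SH changed sign with other scaling factors.

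Over the 12 libraries the SD of log2 CPM of miR-238-3p was 0.14, the 7th smallest of 250 features, whose median was 0.40. Low counts widen this measure, so abundant features are the fairer setting. Among the 18 features that averaged over 10000 CPM miR-238-3p had the 5th smallest SD. The largest level was 1.40 times the smallest.

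**Figure D1:**
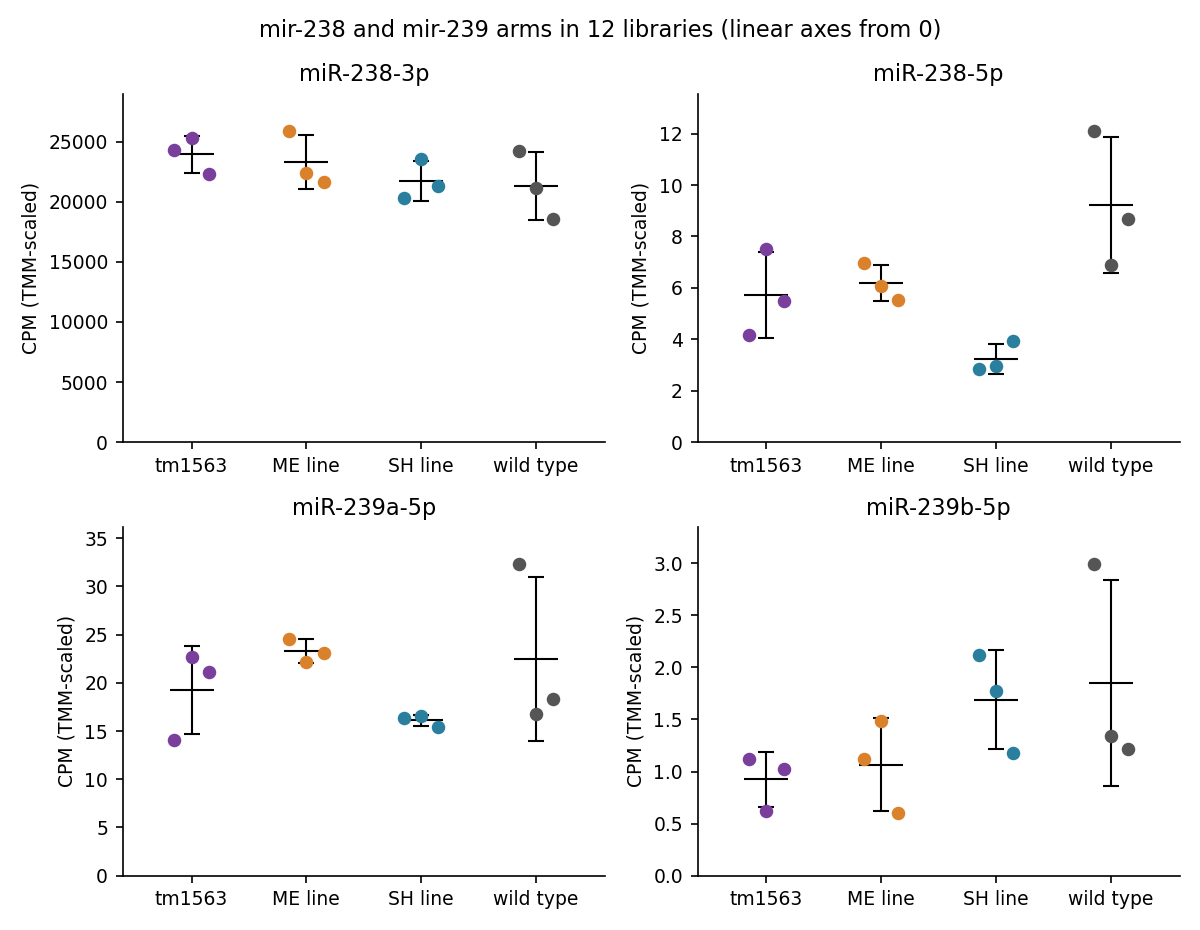
Levels of the 4 arms in CPM (vertical axes, linear from 0) by genotype, with 1 point per library, a bar for the mean and whiskers for the SD (n = 3). The 3 SH libraries lie below every other library for miR-238-5p, while the genotypes overlap for miR-238-3p.

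The passenger arm miR-238-5p was the member that differed between genotypes. It fell to 3.25 ± 0.588 CPM in the SH line, against 9.23 ± 2.65 CPM in wild type (SD, n = 3 each). The counts behind it were 23, 20 and 30 reads in the SH libraries and 81, 72 and 107 reads in wild type. On the CPM scale the SH libraries had 2.86, 2.95 and 3.92 and the wild-type libraries 12.1, 6.89 and 8.70. Every SH library lay below every wild-type library. The log2 fold change was -1.49 (SE 0.30, 95% interval -2.13 to -0.86, edgeR adjusted p = 0.00881), and it was the 1 member of 4 called in this comparison, where 2% of all features tested were called. At an unadjusted p under 0.05 it was again the 1 member, beside 14.4% of all features, and 10% of all features lay without overlap below wild type.

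That fall kept its direction in all 12 alternatives and its call in 8 of them. Without SH library 1 or 2 the edgeR adjusted p was 0.0663 or 0.0525, with library totals as scaling it was 0.111, and with these 2 groups fitted alone it was 0.136. Over the alternatives the adjusted p lay between 8.72e-04 (DESeq2) and 0.136. Without wild-type library 1, where the level was highest, the log2 fold change was -1.27 (adjusted p = 0.0290). The authors' deposited table for the SH line lists miR-238-5p among its 12 features, at a log2 fold change of -1.22 (adjusted p = 0.00282), with normalized mean counts of 27.6 in the SH line and 76.7 in wild type. The log2 ratio of these means in the authors' deposited table is -1.48. Their tables for tm1563 and for the ME line list 0 of the members.

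In the other mutants miR-238-5p stood between the SH line and wild type. The tm1563 libraries had 4.17, 7.50 and 5.49 CPM, from 41, 60 and 48 reads. The ME libraries had 6.95, 6.06 and 5.54 CPM, from 56, 49 and 37 reads. In both lines the highest library reached into the wild-type range. The log2 fold change against wild type was -0.68 in tm1563 (SE 0.28, interval -1.28 to -0.09, edgeR adjusted p = 0.136) and -0.56 in the ME line (SE 0.28, interval -1.16 to 0.04, adjusted p = 0.179), and neither passed. Without wild-type library 1 these values were -0.45 in tm1563 and -0.34 in the ME line. Of the 4 members edgeR called 0 in tm1563 against wild type, with 1 at an unadjusted p under 0.05 and 0 called by DESeq2. Over all features tested edgeR called 10% in this comparison, and 25.6% had an unadjusted p under 0.05. In the ME line against wild type it called 0 of 4, with 0 at an unadjusted p under 0.05 and 0 called by DESeq2, beside 13.6% and 32.4% of all features by edgeR.

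The mutant lines were then set against each other. In the ME line miR-238-5p averaged 6.19 ± 0.712 CPM, against 3.25 ± 0.588 CPM in the SH line (SD, n = 3 each), a log2 fold change of 0.93 (SE 0.31, interval 0.28 to 1.58). Its edgeR adjusted p of 0.0520 lay just above the threshold, although every ME library lay above every SH library, as for 21.6% of all features, and under the alternatives it ranged from 0.0578 to 0.274. In tm1563 it averaged 5.72 ± 1.68 CPM, with a log2 fold change of 0.81 against the SH line (SE 0.30, adjusted p = 0.170), again without overlap, as for 16.8% of all features in that direction, and of -0.12 against the ME line (SE 0.29, adjusted p = 0.866). In order from the lowest level the genotypes were SH line, tm1563, ME line and wild type. No neighbours in that order passed the test.

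Of the 4 members edgeR called 0 in the comparisons between mutant lines. DESeq2 called 0 of 4 in tm1563 against ME, and 0 of the 3 with an adjusted p in ME against SH and in tm1563 against SH, where it gave none for miR-239b-5p. At an unadjusted p under 0.05 there was 1 in ME against SH, 0 in tm1563 against ME and 1 in tm1563 against SH, the member being miR-238-5p in both. Over all features tested edgeR called 14.4%, 9.6% and 2% in these comparisons, and 26.4%, 27.2% and 17.2% had an unadjusted p under 0.05.

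**Figure D2:**
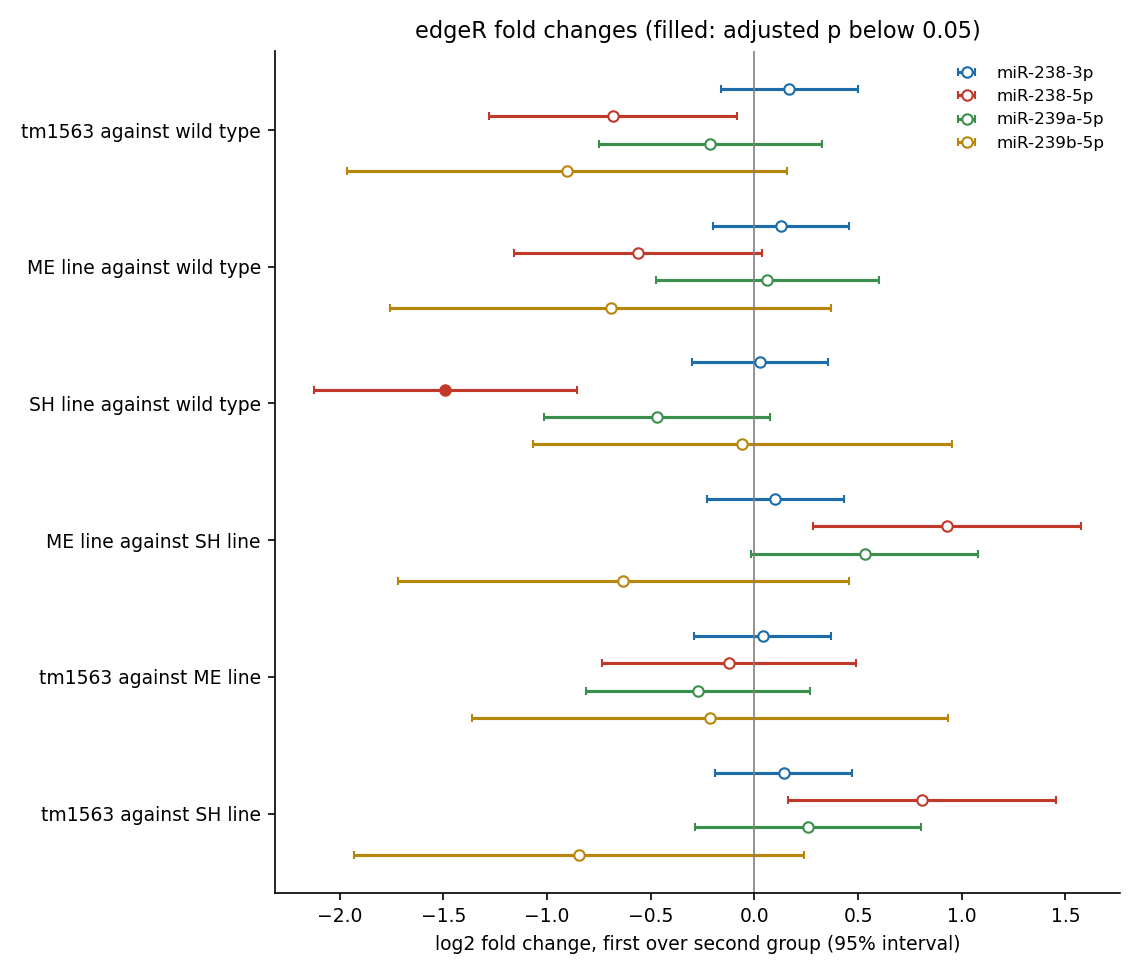
Log2 fold change of each arm (horizontal axis) with its 95% interval in the 6 comparisons, first-named genotype over the second, from edgeR. The one filled point, miR-238-5p in the SH line against wild type at -1.49, passed the adjusted threshold.

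The ratio of the arms within a library needs no scaling between libraries. It uses the same miR-238-5p reads as above. Against wild type the log2 fold change of miR-238-3p was only 0.027 in the SH line, 0.17 in tm1563 and 0.13 in the ME line. The ratio thus largely restates the levels of miR-238-5p and is not separate support. For each miR-238-5p read the tm1563 libraries held 5836, 3370 and 4059 miR-238-3p reads, the ME libraries 3726, 3697 and 3897, and the SH libraries 7086, 7969 and 5443. The wild-type libraries held 2004, 3075 and 2132. All 9 mutant libraries lay above all 3 wild-type libraries. The same held for 3 of the 80 precursors with both arms tested (3.75%), the others being miR-39 and miR-90, named after their values were seen, and in 0 precursors did all 9 lie below.

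On the log2 scale the arm ratio was higher than in wild type by 1.49 in the SH line (SE 0.25), by 0.86 in tm1563 (SE 0.30) and by 0.67 for the ME line (SE 0.19). Each had an exact two-sided permutation p of 0.1, the smallest that 3 libraries against 3 allow, and an adjusted p of 0.15 over the 6 comparisons, so these tests could not pass. Over the 80 precursors, major arm over minor arm, groups did not overlap in the higher direction for 25% in the SH line, 26.2% in tm1563 and 10% in the ME line. The difference of mir-238 ranked 1st of 80 in the SH line, where the median difference over the precursors was 0.21. It ranked 8th in tm1563, where the median was 0.14, and 8th in the ME line, where the median was -0.21. Between mutant lines the ratio in ME was lower than in SH by a log2 difference of -0.82 (SE 0.16, exact permutation p = 0.1), without overlap, as for 37.5% of precursors. The differences of tm1563 from the SH line (-0.63, exact permutation p = 0.2) and from the ME line (0.19, exact permutation p = 0.7) came with overlap.

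**Figure D3:**
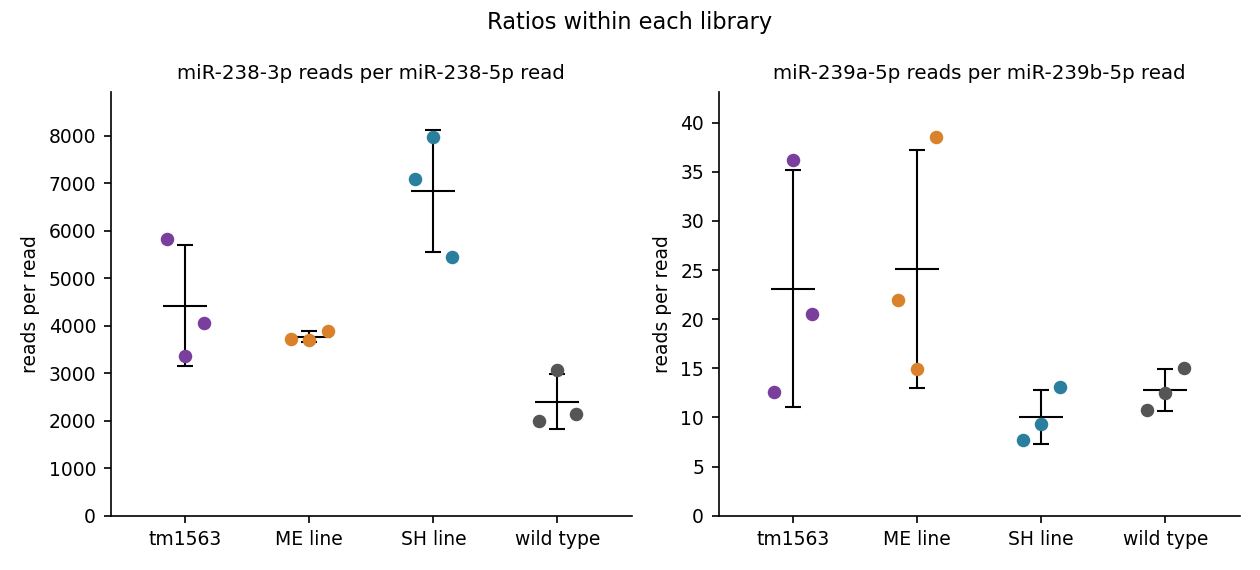
Ratio of miR-238-3p to miR-238-5p reads (left) and of miR-239a-5p to miR-239b-5p reads (right) within each library by genotype, with the mean and SD (n = 3), on linear axes from 0. On the left the wild-type libraries lie between 2004 and 3075, below all mutant libraries, and on the right the genotypes overlap except ME and SH.

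The arm miR-239a-5p, which carries the family's seed, had far fewer reads than miR-238-3p, between 112 and 226 per library. The tm1563 libraries had 14.0, 22.6 and 21.1 CPM, the ME libraries 24.6, 22.2 and 23.1, the SH libraries 16.3, 16.5 and 15.4, and the wild-type libraries 32.3, 16.7 and 18.4. The SH libraries were close together and lay just under the lowest wild-type library, beside 10% of all features that lay below wild type without overlap, and wild-type library 1 was far above the other two of its group.

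In the SH line miR-239a-5p averaged 16.1 ± 0.584 CPM, against 22.5 ± 8.54 CPM in wild type (SD, n = 3 each), a log2 fold change of -0.47 (SE 0.26, interval -1.02 to 0.07, edgeR adjusted p = 0.429). Without wild-type library 1 this value was -0.13. In tm1563 it averaged 19.3 ± 4.59 CPM, the log2 fold change against wild type was -0.21 (interval -0.75 to 0.33), and it was 0.13 without wild-type library 1. In the ME line it was 0.061 (interval -0.48 to 0.60), a sign that also turned with other scaling. The ME line averaged 23.3 ± 1.23 CPM and did not overlap the SH line, at a log2 fold change of 0.53 (SE 0.26, interval -0.01 to 1.08, adjusted p = 0.189), as for 21.6% of all features in that direction. In order from the lowest mean the genotypes were SH line, tm1563, wild type and ME line, and none of the neighbours passed the test.

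Its partner arm miR-239a-3p was the more abundant in every library, although the family's seed is on the 5p arm. Per miR-239a-5p read there were between 3.28 and 7.98 reads of miR-239a-3p over the 12 libraries, with a median of 5.87. This ratio was chosen after its values were seen and was not tested between genotypes. By mean the ratio was 6.44 ± 1.63 in tm1563, 4.74 ± 1.27 in the ME line, 6.11 ± 0.420 for the SH line and 5.80 ± 1.59 in wild type (SD, n = 3 each). Ligation to adaptors differs between sequences, so read ratios of arms are not molar ratios. The level of miR-239a-3p was 121 ± 25.9 CPM in tm1563, 109 ± 25.5 in the ME line, 98.5 ± 9.55 for the SH line and 121 ± 6.93 in wild type. In the SH line the log2 fold change of miR-239a-3p against wild type was -0.30 (interval -0.73 to 0.13, edgeR adjusted p = 0.518), the largest in size of its 6 comparisons, none of which passed.

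The arm miR-239b-5p, the seed-bearing arm of the mir-239b copy, was near the floor. The tm1563 libraries held 11, 5 and 9 reads, the ME libraries 9, 12 and 4, the SH libraries 17, 12 and 9, and the wild-type libraries 20, 14 and 15. Summed over a genotype these were 25 reads in tm1563 and 25 in the ME line (95% exact Poisson interval 16.2 to 36.9 for each), 38 in the SH line (26.9 to 52.2) and 49 in wild type (36.3 to 64.8), where the intervals cover counting error only. Before TMM scaling, as the filter reads it, it reached the cutoff of 1.27 CPM in 0 libraries of tm1563, 1 of the ME line, 3 of the SH line and 2 of wild type, whereas the other 3 members did so in all 12 libraries. It was thus tested on account of the genotypes where it was higher, so its lower values in tm1563 and the ME line are given as a description.

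In tm1563 miR-239b-5p averaged 0.924 ± 0.263 CPM, against 1.85 ± 0.989 CPM in wild type (SD, n = 3 each), a log2 fold change of -0.91 (SE 0.50, interval -1.97 to 0.16, edgeR adjusted p = 0.286). These groups did not overlap, and 14.4% of all features tested lay below wild type in this way. Because 0 libraries of tm1563 reached the filter cutoff, this separation is a description and not support for a fall. Without wild-type library 1 the log2 fold change was -0.44 in tm1563 and -0.24 in the ME line. In the ME line it averaged 1.07 ± 0.445 CPM, at -0.69 against wild type (interval -1.76 to 0.37), and in the SH line 1.69 ± 0.475 CPM, at -0.060 (interval -1.07 to 0.95), a value that was 0.39 without wild-type library 1. Between mutant lines tm1563 lay below the SH line without overlap, at -0.85 (interval -1.93 to 0.24, edgeR adjusted p = 0.528), as did 6% of all features. This too is a description, since the SH line helped carry the arm past the filter. The intervals of all 6 comparisons reach past a halving in the first-named genotype, so a fall of that size is not excluded in any of them. Their upper ends lie at or below 0.95, short of a doubling. What size of difference could be detected was not computed. The arm miR-239b-3p had 0 reads in 9 of the 12 libraries and at most 3 in any, so it lies at or under the floor and no fold is given.

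Per read of miR-239b-5p there were 12.6, 36.2 and 20.6 reads of miR-239a-5p in the tm1563 libraries, 22.0, 14.9 and 38.5 in the ME libraries, 7.71, 9.33 and 13.1 in the SH libraries, and 10.8, 12.5 and 15.1 in wild type. In every library the mir-239a copy was the higher of the pair. Values of the ME line all exceeded those of the SH line, with a log2 difference of 1.20 (SE 0.42, exact two-sided permutation p = 0.1, adjusted p = 0.36 over 6 comparisons). This rests on 9, 12 and 4 reads of miR-239b-5p in the ME libraries and 17, 12 and 9 in the SH libraries. That arm reached the filter cutoff in 1 library of the ME line and 3 of the SH line. The separation of ME from SH is therefore a description too. Reads may also have been shared between the copies. How often other ratios of 2 copies separate in this way was not computed. The other 5 comparisons overlapped, with exact permutation p values between 0.2 and 0.7.

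**Figure D4:**
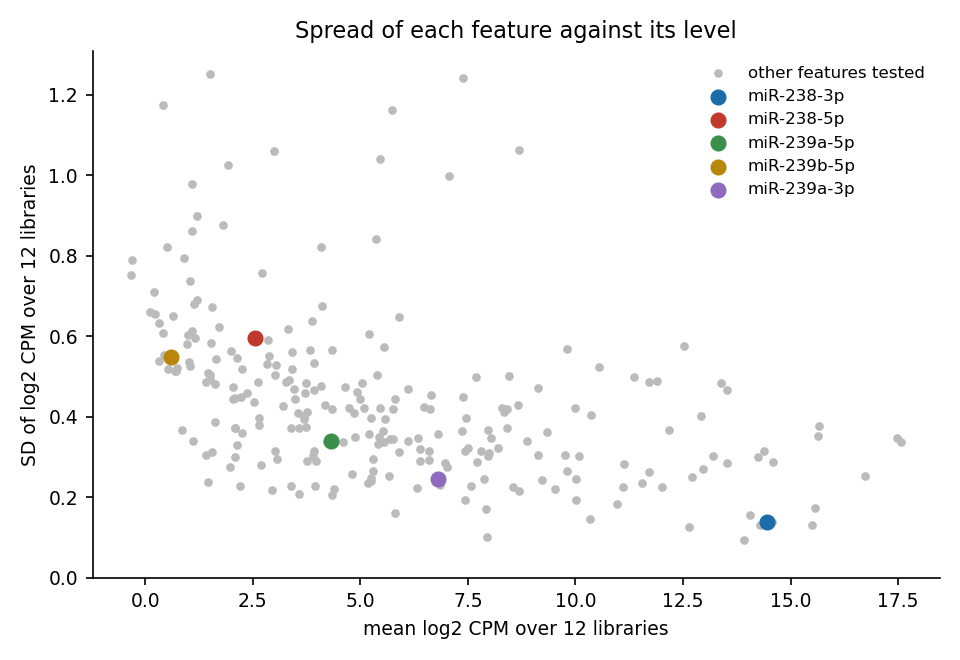
SD of log2 CPM over the 12 libraries (vertical axis) against the mean log2 CPM (horizontal axis) for the 250 features tested, with the family arms and miR-239a-3p in colour. The SD of miR-238-3p is 0.14 at a high level, and those of miR-238-5p and miR-239b-5p are 0.59 and 0.55 at low levels.

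The features whose log2 CPM ran most like each member over the 12 libraries were ranked by Pearson's r, as a description, since the libraries share genotype, depth and scaling. For miR-238-5p the closest was miR-71-3p at r = 0.83, the passenger arm of mir-71, which promotes longevity in worms. It was followed by miR-1829b-3p (r = 0.79), whose reads may be shared with its copies, and miR-228-3p (r = 0.78). For miR-238-3p the closest were miR-5550-3p (r = 0.81, with only 5 to 14 reads per library), miR-75-3p (r = 0.79) and miR-2208b-5p (r = 0.78). For miR-239a-5p they were miR-67-3p (r = 0.79), miR-255-3p (r = 0.77) and miR-236-5p (r = 0.76). For miR-239b-5p, with its few reads, they were miR-1829b-5p (r = 0.77), miR-83-3p (r = 0.65) and miR-59-3p (r = 0.64). The median r over all features lay between -0.09 and 0.19 for the 4 members. Among the members r was 0.74 between miR-238-5p and miR-239a-5p and 0.13 between both arms of mir-238, and miR-239b-5p followed none of them, at r between -0.08 and 0.10. Wild-type library 1, which stood apart, held the highest level of miR-238-5p, miR-239a-5p and miR-239b-5p, and r without it was not computed.

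The arm miR-71-3p was picked because it ran most like miR-238-5p over these same libraries. A like order of the genotypes therefore follows in part from that choice and is given as a description. The level of miR-71-3p was 71.2, 87.9 and 93.6 CPM in tm1563, 112, 111 and 93.5 in the ME line, 78.6, 61.3 and 80.4 in the SH line, and 133, 145 and 158 in wild type. The wild-type libraries lay above all 9 others. In the single comparisons 14.4% of all features lay below wild type without overlap in tm1563, 15.6% in the ME line and 10% in the SH line. The share of features below wild type in all 9 libraries was not computed. By mean miR-71-3p was at 84.3 ± 11.6 CPM in tm1563, 106 ± 10.6 in the ME line, 73.4 ± 10.6 for the SH line and 145 ± 12.7 in wild type. By mean SH was thus lowest and wild type highest for both passenger arms. The log2 fold change of miR-71-3p against wild type was -0.99 for the SH line, -0.79 for tm1563 and -0.46 for the ME line (edgeR adjusted p = 0.00881, 0.0138 and 0.0808). The major arm miR-71-5p had log2 fold changes of -0.044, -0.23 and 0.097 in the same comparisons and passed in none. The authors' deposited tables list miR-71-3p for each mutant line. For the ME line, where it did not pass here, they give a log2 fold change of -0.52 (adjusted p = 0.0276 in the authors' table).

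**Figure D5:**
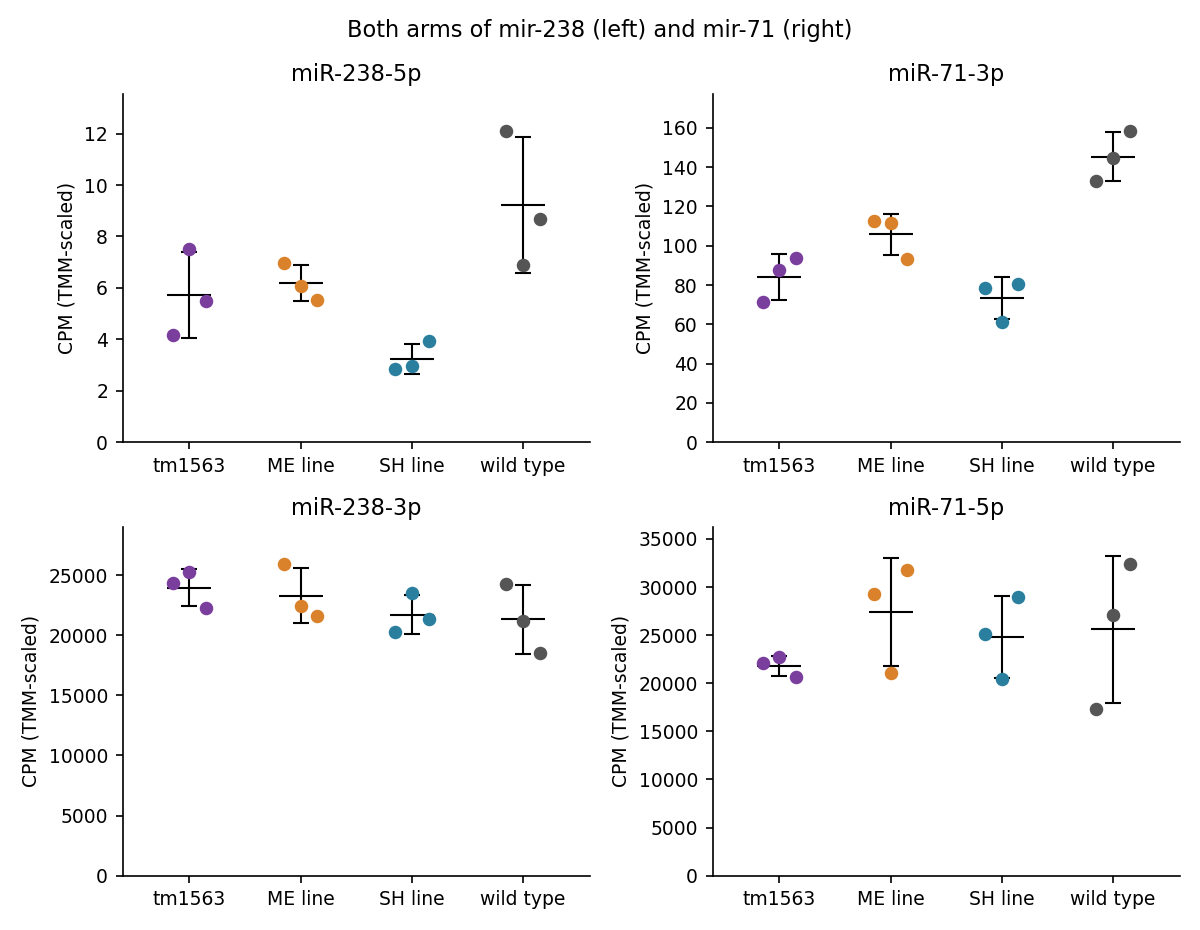
Levels in CPM (vertical axes, linear from 0) of the passenger arms miR-238-5p and miR-71-3p (top) and the guide arms miR-238-3p and miR-71-5p (bottom) by genotype, with 1 point per library, the mean and the SD (n = 3). By mean both passenger arms are lowest in the SH line and highest in wild type, while both guide arms overlap between genotypes. The arm miR-71-3p was picked for its likeness to miR-238-5p in these libraries.

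A list of 9 other arms of miRNAs studied in lifespan and stress gave the setting: lin-4-5p, miR-34-5p, miR-71-5p, miR-71-3p, miR-80-3p, miR-83-3p, miR-124-3p, miR-228-5p and miR-246-3p. All 9 were tested. Of these miRNAs only mir-71 entered with both arms, and the list was chosen with earlier results of these data known. Its counts beside the shares over all features are therefore a description. In tm1563 against wild type 0 rose and 2 fell, miR-71-3p and miR-246-3p, an arm reported to promote longevity, which averaged 2928 CPM in tm1563 and 4562 CPM in wild type (log2 fold change -0.64, edgeR adjusted p = 0.0420). In the ME line 0 rose and 1 fell, miR-246-3p, at 2274 CPM or 0.498 times its wild-type level (adjusted p = 0.00382), and in the SH line 0 rose and 1 fell, miR-71-3p. Of all features tested 4.8% fell in tm1563, 6% in the ME line and 2% in the SH line. Between ME and SH 0 rose and 1 fell, again miR-246-3p (log2 fold change -0.92, SE 0.19, edgeR adjusted p = 0.00440), beside 3.6% of all features. The list's median log2 fold change was -0.0036 in tm1563, 0.012 in the ME line and -0.085 in the SH line, beside 0.029, 0.068 and -0.035 over all features tested. For the 4 family members the medians were -0.45, -0.25 and -0.27. Each describes only 4 values, and a shift of the family as a set was not tested. Against wild type edgeR called only miR-238-5p in the SH line. The tm1563 and ME medians include miR-239b-5p, which was tested on account of the genotypes where it was higher. The tm1563 median also includes miR-239a-5p, whose log2 fold change there was 0.13 without wild-type library 1. The neighbour of mir-238, mir-80, gave miR-80-3p at log2 fold changes of -0.0036 in tm1563, 0.012 in the ME line and -0.23 in the SH line, none of which passed (adjusted p = 0.993, 0.971 and 0.519).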

How the data were processed

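Small RNA inserts of 18 to 40 nt were read over 50 nt from 12 libraries, per the labels. The authors deposited read counts per mature arm with no normalization, and per the submitters' processing notes used Bowtie, DESeq2 and the build WBcel235. How multiply mapping reads were treated is not given in the sources used here. The authors' deposited comparison tables give normalized mean counts (a signal), log2 fold changes and p-values, and list only features past the authors' threshold. Their line codes matched the count columns: log2 ratios of group means correlated at r = 1.00 for matched codes over 12 to 51 listed features. Of the library columns, 0 were unmapped.

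Counts were filtered with filterByExpr (minimum count 10), scaled by TMM and fitted with edgeR 4.0.16 in R 4.3.3 (glmQLFit, robust), each genotype having its own mean, without a block. An SE is the log2 fold change divided by the root of F. Ratios used log2 with 0.5 added to each count. DESeq2 1.42.0, other scalings, no filter, single libraries left out and a block were tried. The fit was also run on simulated data in which every feature had the same dispersion. That run checks the code and says nothing about the low-count arms. The labels call the replicates biological. The named features were the 4 members, their partner arms, the 3 features most like each member, and the lifespan list with values for arms that passed. The members and lists were chosen with earlier results of these data known. The abundance of all arms with the family's seed, summed, was planned and is not reported, since no mature sequences were used here.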

Additional observations from a re-analysis of the deposited data

How the results depend on the processing

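Of 286 alternative values for the 24 member comparisons, 261 kept direction and side of the threshold, 4 lost the call and 21 changed sign, each at a value whose interval held 0. The lost calls were all of miR-238-5p in SH against wild type, at -1.35 with library totals and -1.44 with the 2 groups fitted alone. The others were at -1.37 without SH library 1 and -1.43 without SH library 2. Over all fits with a single library left out, this value lay within -1.67 to -1.27. With RLE size factors and with DESeq2, miR-239a-5p in ME against wild type was -0.041 and -0.040, and miR-238-3p in ME against SH was -0.053 by both, and with library totals miR-239b-5p in SH against wild type was 0.070. With 1 library left out, miR-239a-5p ranged from -0.43 to 0.13 in tm1563 and from -0.11 to 0.40 in ME against wild type, miR-238-3p from -0.064 to 0.12 and miR-239b-5p from -0.30 to 0.39 in SH against wild type. Likewise miR-238-3p ranged from -0.052 to 0.17 in ME against SH, from -0.15 to 0.056 in tm1563 against ME and from -0.042 to 0.21 in tm1563 against SH, and miR-238-5p from -0.36 to 0.060 in tm1563 against ME. In tm1563 against ME the mir-238 arm ratio ranged from -0.026 to 0.37 and the mir-239a to mir-239b ratio from -0.50 to 0.22, and the other 93 of 96 alternative ratio values kept their sign, where no test could pass. The cause was not tested.

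The number of features called was 25 in tm1563, 34 in ME and 5 in SH against wild type, 36 in ME against SH, 24 in tm1563 against ME and 5 in tm1563 against SH. In that order single libraries left out gave 5 to 16, 10 to 39, 2 to 8, 12 to 36, 13 to 35 and 0 to 2. Library totals gave 15 in tm1563 and 0 in SH against wild type (edgeR), 18 in ME against SH and 15 in tm1563 against ME. The 2 groups fitted alone gave 41 in tm1563 and 0 in SH against wild type, and 8 in tm1563 against SH. DESeq2 gave 10 in SH against wild type and 9 in tm1563 against SH. Library numbers did not pair the samples: 3 of 18 same-numbered pairs correlated above 0.1. A library was also checked against the 3 libraries of another genotype, and in 7 of 36 such checks its own number correlated best. With the replicate block 16 features were called in tm1563 against wild type and 3 in tm1563 against SH, and miR-238-5p in SH against wild type was -1.49 (edgeR adjusted p = 0.0257). Library totals moved the median of all features by over 0.1 in tm1563 against wild type, to 0.15 against 0.029 with TMM, and in SH against wild type, to 0.079 against -0.035. So did RLE in ME against wild type, to -0.039 against 0.068, in ME against SH, to -0.025 against 0.13, and in tm1563 against SH, to -0.028 against 0.092.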
